A study of Mus musculus with 66 samples.

Results

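The genes described here belong to the Wnt, Notch and Hedgehog pathways and to the Hox, Sox and Groucho (Tle) families, measured in the cerebellum of C57BL/6 mice. They were chosen by gene symbol, from probes with a single symbol that named a Wnt, a frizzled receptor, a catenin, a component of the beta-catenin destruction complex, a Groucho co-repressor, Numb, a Hedgehog receptor, Gli or Sufu, or a Hox or Sox factor. The rule found 23 genes on 27 probes, of 4209 named genes and 8448 probes on the B filter of a mouse cDNA nylon array. A Notch ligand and a Hox gene were left out by name and are not analysed here. Of the Notch pathway Numb alone is described, and no Notch receptor, Dishevelled, Lrp co-receptor, Hes, Hey or Pax factor and no alpha-catenin was among the genes found.

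Caloric restriction (CR) mice had regular feed to 13 weeks of age, then fortified feed at 90% and 75% for 1 week each, and at 60% from there on. They numbered 9 at 6 months, 10 at 16 months and 8 at 24 months. The ad libitum (AL) mice had regular feed throughout and numbered 5 at 17 to 21 days, 5 at 33 to 44 days, 10 at 6 months, 10 at 16 months and 9 at 24 months. Every group held females and males, and each array was a different mouse. At 24 months the 3 CR males were 673 days old, whereas the AL males were 719 to 743 days old.

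The Wnt proteins are secreted signals that bind frizzled receptors. In the beta-catenin branch, the signal stops a complex of Apc, Axin and the kinase Gsk3b from marking beta-catenin for destruction, and the Groucho proteins hold Wnt target genes silent until beta-catenin arrives. In the Hedgehog pathway, Ptch1 represses Smo until the ligand binds, after which Gli factors are freed from Sufu and act on target genes. Purkinje cells of the young cerebellum secrete Sonic hedgehog, on which the precursors of granule neurons depend for their divisions in the first postnatal weeks.

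The values were Z scores, the distance of a probe from the mean of its array in units of that array's SD over all probes, and a difference in Z cannot be turned into a fold. The score of a gene is the mean of its probes. It ranks radioactive signal among spots and not transcript number, since spots differ in the cDNA they carry. In bulk tissue, fewer cells of a type and less RNA per cell cannot be told apart. Of the 66 arrays, 3 had a median correlation with the other arrays below 0.9 (0.695, 0.701 and 0.820) and were left out: the second replicates of CR males at 16 months, CR females at 16 months and CR females at 24 months. The 384 probes that stand eighth when probe numbers are counted off by 22 had a mean Z of -2.70 on the first of these and -2.69 on the second, against 0.309 on the arrays used, and 1 of the Ctnnd1 probes is among them. The other 63 arrays had a lowest median correlation of 0.921 and a median of 0.968. Of the cerebellar cell type markers, 0 of 13 for granule neurons and 2 of 9 for Purkinje cells were on the filter, and of those for Purkinje cells Car8 had a mean Z of 0.841 and Calb1 of -0.015, so the tissue label was checked on few genes.

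Probe names on this filter were weakly borne out by the data. Over the 485 genes with 2 probes, the mean Z scores of both probes correlated by 0.121 across genes, and within groups of mice the probes of a gene had a median correlation of 0.0423 over the arrays. Why the probes of a gene agreed so little was not tested. Every gene name below therefore stands for the probe as annotated.

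Over the 63 arrays used, 8 of the 23 genes (34.8%) had a mean Z above 0, the array mean, against 48.7% of all 7782 features (genes and unnamed probes) on the filter. The means of single genes given next are those of the 53 adult arrays. Among the ligands, Wnt4, a Wnt of kidney and gonad development, had a mean Z of 1.24 ± 0.068 (SD, n = 53 adult arrays). Wnt5a, which signals mostly without beta-catenin, had a Z of -0.435 ± 0.125 and its close relative Wnt5b a Z of -2.11 ± 0.375. Wnt5b was among the dimmest spots of the filter, at percentile 1.79 of all features. Wnt4 was above 0 and the other ligands were below 0 on all 63 arrays. Fzd3, a frizzled receptor known for its part in axon guidance, had a mean Z of 0.422 ± 0.110 and was above 0 on 62 of 63 arrays.

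In the destruction complex, Gsk3b had a mean Z of 0.302 ± 0.079, whereas the scaffolds Axin1 and Apc had -0.224 ± 0.131 and -0.738 ± 0.271 (SD, n = 53). Ctnnd1, a catenin that binds cadherins at cell contacts, was at -0.228 ± 0.111. Ctnnbl1, which carries the catenin name but is known as a partner of the splicing machinery, was at -0.957 ± 0.153. Of the Groucho family, Tle6, a divergent member known from the oocyte, was at 1.12 ± 0.180, Tle5, a short form that lacks most of the protein, at -0.091 ± 0.118, and the full-length co-repressor Tle4 at -0.910 ± 0.139.

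Numb, an adaptor that opposes Notch signalling in dividing neural precursors, had a mean Z of 0.267 ± 0.143. In the Hedgehog pathway, Smo was at 0.304 ± 0.117 and its inhibitor Ptch1 at -0.317 ± 0.125. Gli2, the main activating factor, was at 0.454 ± 0.181, Gli3, which acts mostly as a repressor, at -0.546 ± 0.150, and Sufu at -0.762 ± 0.130. The Sox factors were all below 0 on all 63 arrays: Sox11 and Sox4, both known from immature neurons, at -0.513 ± 0.087 and -0.977 ± 0.336, Sox21, of neural progenitors, at -0.842 ± 0.148, and Sox6 at -1.08 ± 0.239. Hoxc9, a factor that patterns the trunk of the embryo, had a mean Z of 1.34 ± 0.161.

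**Figure D1:**
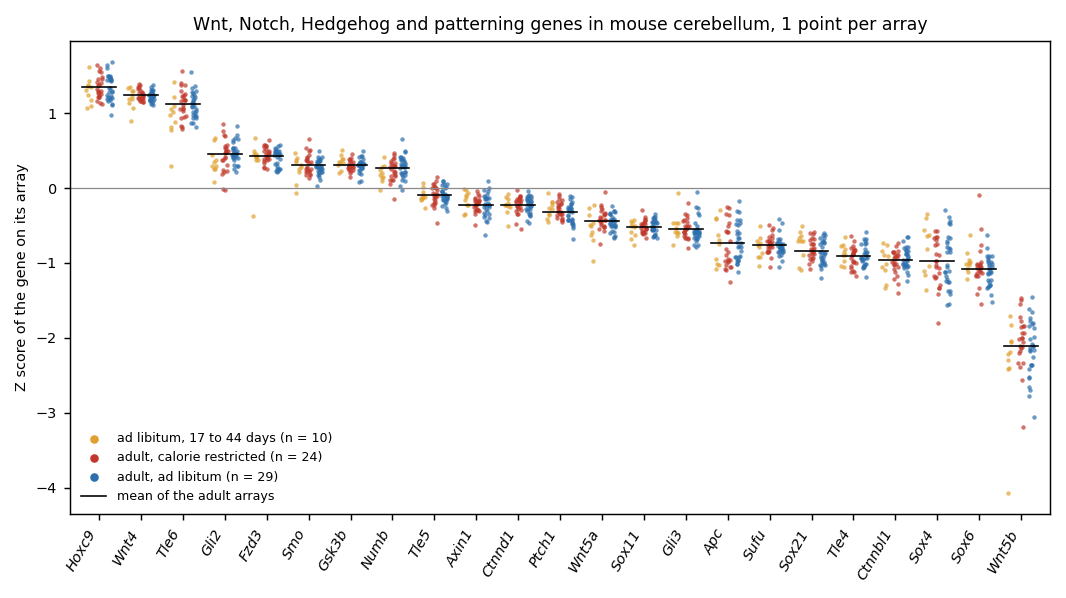
Z score (vertical axis, no unit) of each of the 23 genes on the 63 arrays used, with 1 point per array, for AL mice of 17 to 44 days (yellow, n = 10), adult CR mice (red, n = 24) and adult AL mice (blue, n = 29), and a black line at the mean of the 53 adult arrays. The colours overlap in every gene, and single arrays stand far out for Wnt5b (-4.07), Tle6 (0.29) and Fzd3 (-0.37).

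The spread between mice of a group was of the usual size: the SD within groups had a median of 0.146 over the 23 genes, from 0.074 for Wnt4 to 0.443 for Wnt5b, against a median of 0.167 over all features. The lowest Wnt5b value, -4.07, came from the first male of 33 to 44 days, in whose cohort the other values were -2.40, -2.19, -2.06 and -1.83.

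Gsk3b, Wnt4, Sox11 and Ctnnd1 had 2 probes each. In every one of them, 1 probe was brighter than the other on 63 of 63 arrays, with mean Z scores of 1.24 and -0.624 for Gsk3b, 1.72 and 0.739 for Wnt4, 0.108 and -1.15 for Sox11, and 0.138 and -0.594 for Ctnnd1. For Gsk3b the probes also moved against each other: their correlation within groups was -0.783 over 63 arrays, and -0.680 when the array sets were taken out as well, as a description with no test. Of the 485 genes with 2 probes, 0 had a lower correlation than Gsk3b. The corresponding values within groups were -0.344 for Wnt4, -0.365 for Sox11 and -0.0198 for Ctnnd1. The mean of both Gsk3b probes therefore varied less (SD 0.079 in adults) than either probe (0.155 and 0.255 over the 63 arrays), and the differences of Gsk3b below rest on spots that disagreed.

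**Figure D2:**
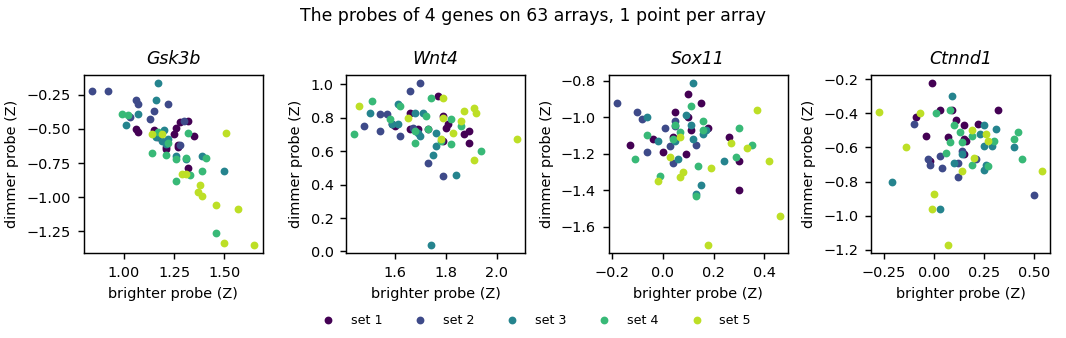
Z score of the brighter probe (horizontal axis) against that of the dimmer probe (vertical axis) for the 4 genes with 2 probes, 1 point per array (n = 63), coloured by array set, a run of array numbers. The Gsk3b points fall along a line that slopes down, while the other genes show loose clouds.

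The first question was whether these genes changed while the cerebellum matured, between the third and the sixth week of life and adulthood. At 33 to 44 days against 17 to 21 days, 0 of the 23 genes passed a Benjamini-Hochberg adjusted p under 0.05 in limma, where 0.308% of all features did, and 5 of 23 had an unadjusted p under 0.05, where 13.4% of features did. In adult AL mice against those of 17 to 21 days, again 0 of 23 passed, where 1.4% of features did, and 4 of 23 had an unadjusted p under 0.05, against 20.2% of features. Both comparisons share the mice of 17 to 21 days. In adults against 33 to 44 days, 0 of 23 passed (0% of features) and 0 of 23 had an unadjusted p under 0.05 (2.08% of features), with the smallest p for Ctnnbl1 (0.161, SE 0.0832, adjusted p = 1), Gli2 (0.159, SE 0.0905) and Gli3 (-0.125, SE 0.0797).

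Tle6 came closest. It had Z scores of 0.78, 0.98, 1.10, 1.21 and 1.41 at 33 to 44 days, against 0.29, 0.81, 0.88, 1.01 and 1.05 at 17 to 21 days. In the 29 adult AL mice the lowest was 0.82, the median 1.10 and the highest 1.55. The cohorts overlapped, and the mouse at 0.29 lay below every other array. The difference was 0.346 (SE 0.0973, adjusted p = 0.0559) in adults against 17 to 21 days and 0.335 (SE 0.127, adjusted p = 0.254) at 33 to 44 days against 17 to 21 days. The adult difference passed with the array set as a block (0.287, adjusted p = 0.0371) and after quantile normalization (0.332, adjusted p = 0.0422). It also passed after correction by place (0.277, adjusted p = 0.0170) and over features with a mean Z above 0 (0.346, adjusted p = 0.0257). With array weights it did not pass (0.326, adjusted p = 0.268). The share of all features that passed was not counted under these settings.

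Wnt4 had Z scores of 1.13, 1.23, 1.30, 1.33 and 1.36 at 33 to 44 days, against 0.89, 1.07, 1.20, 1.20 and 1.30 at 17 to 21 days, with 1.12, 1.23 and 1.38 as the lowest, median and highest of the adult AL mice. The difference was 0.170 (SE 0.0555, adjusted p = 0.169) at 33 to 44 days and 0.126 (SE 0.0424, adjusted p = 0.135) in adults. Wnt5a had -0.69, -0.47, -0.36, -0.26 and -0.22 at 33 to 44 days, against -0.97, -0.62, -0.58, -0.51 and -0.49 at 17 to 21 days. Its differences were 0.270 (SE 0.0913, adjusted p = 0.194) at 33 to 44 days and 0.195 (SE 0.0697, adjusted p = 0.157) in adults. In both ligands, the youngest and the older mice overlapped.

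Sox21 had lower scores in the older mice. Its Z scores were -1.09, -1.07, -0.90, -0.64 and -0.58 at 33 to 44 days, against -0.71, -0.71, -0.70, -0.67 and -0.50 at 17 to 21 days, and the adult AL mice lay between -1.20 and -0.60 with a median of -0.87. The 5 youngest mice were close together, and the older cohorts reached lower. The difference was -0.213 (SE 0.102, adjusted p = 0.357) at 33 to 44 days and -0.199 (SE 0.0777, adjusted p = 0.176) in adults. Ctnnd1 had a difference of 0.157 (SE 0.0781, adjusted p = 0.372) at 33 to 44 days and of 0.0834 (SE 0.0597, adjusted p = 0.392) in adults. Gsk3b had values of 0.31 to 0.505 at 17 to 21 days, and its difference in adults was -0.0831 (adjusted p = 0.282). Its brighter probe had a difference of 0.143 (SE 0.0802, adjusted p = 0.288) and its dimmer probe of -0.309 (SE 0.123, adjusted p = 0.184), so the probes ran in opposite directions here too.

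A single mouse carried much of this. The first male of 17 to 21 days, 19 days old, had the lowest value of Tle6 (0.29), Wnt4 (0.89), Wnt5a (-0.97), Fzd3 (-0.37) and Smo (-0.07) among all the mice under 45 days, and its array had the lowest median correlation of those used, 0.921. For Wnt4, only 1 of the 2 probes was low in this male. The dimmer probe read 0.04, the lowest of the 63 arrays, against 0.69 to 0.82 in the other mice of its cohort. The brighter probe read 1.74, within the 1.44 to 1.79 of those mice. Fzd3 was at 0.41, 0.43, 0.50 and 0.67 in the other 4 mice of its cohort. The fit weights both sexes equally, so without either male the other one carries the whole weight of its sex in this cohort. Without this male, the difference of adults from 17 to 21 days was 0.198 for Tle6 (adjusted p = 0.532), 0.0806 for Wnt4 (adjusted p = 0.542) and 0.080 for Wnt5a (adjusted p = 0.664). The sign of Fzd3 turned, with -0.158 in place of 0.102, where the remaining male had the highest Fzd3 value of the cohort, 0.67. Without the second male, 4 genes passed: Tle6 (0.49, adjusted p = 0.00195), Wnt4 (0.171, adjusted p = 0.0218), Wnt5a (0.31, adjusted p = 0.00707) and Fzd3 (0.362, adjusted p = 6.95e-05). The features called over the whole filter went the same way. They numbered 109 with all arrays used, 1 without the first male and 697 without the second.

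**Figure D3:**
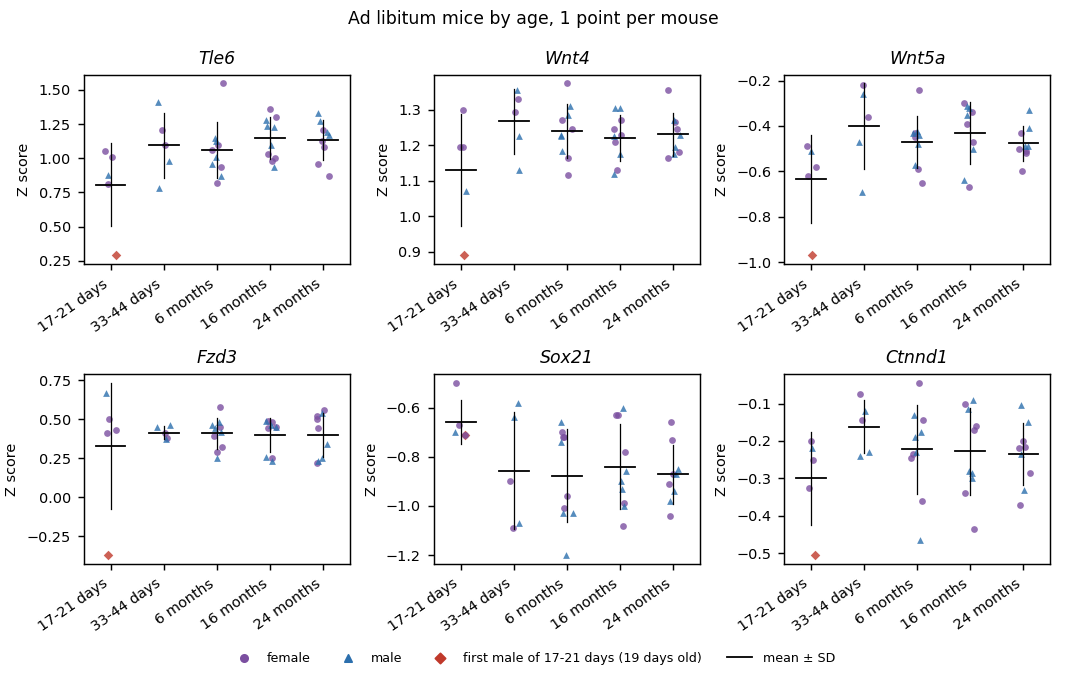
Z scores (vertical axes) of 6 genes in AL mice at 5 ages (horizontal axes), 1 point per mouse, with the mean and SD of each cohort in black, females as circles, males as triangles and the first male of 17 to 21 days as a red diamond. The diamond is the lowest point for Tle6, Wnt4, Wnt5a, Fzd3 and Ctnnd1, and lies close to others of its cohort for Sox21.

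The first male of 17 to 21 days was also at an end of its cohort in all 7 marker lists with genes on the filter, the lowest in 5 and the highest in 2. The summed Z of the 4 astrocyte and Bergmann glia markers on the filter, of 12 listed, ranged from 1.77 to 2.33 at 33 to 44 days, against 0.63 to 2.30 at 17 to 21 days, with the first male at 0.63. The 2 Purkinje cell markers summed to 0.72 to 1.04 at 33 to 44 days, against 0.205 to 1.17 at 17 to 21 days, with the first male at 0.205. Of the 10 markers of dividing granule precursors, Top2a and Ccnd2 were on the filter and summed to -0.199 to 0.078 at 33 to 44 days, against -0.277 to 0.035 at 17 to 21 days, with the first male at -0.277. Ccnd2, a cyclin of dividing granule precursors, passed in adults against 17 to 21 days (0.188, adjusted p = 0.0297) but not without that male (0.150, adjusted p = 0.481). Top2a, a topoisomerase of dividing cells, had a difference of the other sign (-0.0642, adjusted p = 0.391), and the first male had the second highest Top2a of its cohort, -0.635. The 5 meningeal markers on the filter, of 6 listed, summed to 0.732 to 0.960 at 33 to 44 days, against 0.275 to 0.828 at 17 to 21 days, with the first male at 0.275. The 2 blood markers of 3 listed summed to -1.51 to -1.18 at 33 to 44 days, against -1.67 to -1.20 at 17 to 21 days, with the first male at -1.67. The 3 microglial markers of 8 listed summed to -1.03 to -0.24 at 33 to 44 days, against -0.81 to 0.31 at 17 to 21 days, with the first male highest at 0.31. The 1 brainstem marker of 5 listed, Tph2, lay between -1.47 and -0.30 at 33 to 44 days, against -0.59 to -0.24 at 17 to 21 days, with the first male highest at -0.24. The part of these markers in the differences above was not tested.

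The second question was whether age in adult AL mice changed these genes, over the intervals that the study used. In none of the comparisons did a gene pass: 0 of 23 were called at 16 against 6 months, at 24 against 16 months and at 24 against 6 months, where 0% of all features were called each time. An unadjusted p under 0.05 was reached by 0 of 23 genes at 16 against 6 months (1.34% of features), by 1 of 23 at 24 against 16 months (3.92% of features) and by 0 of 23 at 24 against 6 months (2.49% of features). Both intervals share the 16 month mice, and the third comparison shares mice with each.

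The 1 gene was Gli2. Its Z scores had a lowest, median and highest value of 0.21, 0.40 and 0.51 at 24 months, against 0.40, 0.475 and 0.83 at 16 months. They overlapped between 0.40 and 0.51, and 5 of the 9 old mice lay at or above the lowest 16 month value. The difference was -0.174 (SE 0.0846, unadjusted p = 0.0450, adjusted p = 0.9996), and leaving out single mice gave -0.191 to -0.136, with an unadjusted p of up to 0.116. At 24 against 6 months Gli2 had a difference of -0.143 (SE 0.0846), and under CR of -0.152 (SE 0.0933), both with an adjusted p of 1. The 6 month values were 0.30, 0.53 and 0.65 (lowest, median, highest) in AL mice.

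Sox6 had the smallest p at 16 against 6 months: its values were -1.52, -1.12 and -0.96 at 16 months (lowest, median, highest), against -1.31, -0.965 and -0.63 at 6 months, with a difference of -0.185 (SE 0.100, adjusted p = 1). Smo followed with 0.098 (SE 0.0579) and Numb with 0.069 (SE 0.0657). At 24 against 6 months, Sox6 had a difference of -0.152 (SE 0.103) and Ptch1 of -0.0865 (SE 0.0607). Gsk3b and Sox11 came after Gli2 at 24 against 16 months, with differences of 0.0344 (SE 0.0428) and -0.0348 (SE 0.0436). All of these had overlapping groups.

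The precision bounds what could have been missed. At 24 against 6 months in AL mice, the 95% intervals of the 23 genes reached a median of 0.136 Z to either side and at most 0.391, for Wnt5b. The interval of Gsk3b ran from -0.0896 to 0.0823, that of Fzd3 from -0.152 to 0.124 and that of Hoxc9 from -0.113 to 0.194. Under CR, 24 against 6 months gave 0 of 23 genes at an adjusted p under 0.05, with 0% of features, and 0 of 23 at an unadjusted p under 0.05, with 1.12% of features. There Gli2 was followed by Apc (-0.193, SE 0.135) and Fzd3 (0.0948, SE 0.0760). The difference between the diets in this age change was also tested: 0 of 23 genes passed (0% of features), all with an adjusted p of 1, and 0 of 23 had an unadjusted p under 0.05 (0.9% of features).

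The third question was diet. CR against AL gave 0 of 23 genes at an adjusted p under 0.05 at 6, 16 and 24 months and over the 3 ages together, and 0% of features in each. At an unadjusted p under 0.05 it gave 0 of 23 each time, with 0.655% of features at 6 months, 2.13% at 16 months, 2.25% at 24 months and 1.64% over the 3 ages. At 6 months, Smo had values of 0.18, 0.27 and 0.53 in CR mice (lowest, median, highest), against 0.03, 0.245 and 0.30 in AL mice, with a difference of 0.101 (SE 0.0597, adjusted p = 1). Tle4 and Sox11 followed with -0.0598 (SE 0.0621) and -0.0393 (SE 0.0436). At 16 months, Tle5 had values of -0.08, 0.01 and 0.15 in CR mice, against -0.30, -0.115 and 0.10 in AL mice, with a difference of 0.0903 (SE 0.0544, adjusted p = 0.9996). Apc was next with -0.178 (SE 0.126), then Gli2 with -0.0973 (SE 0.0871). With the arrays of low correlation put back, the Apc difference was -0.036.

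At 24 months, Sox6 had values of -1.42, -1.04 and -0.09 in CR mice (lowest, median, highest), against -1.43, -1.13 and -0.80 in AL mice. The highest came from the fourth CR female and lay apart from the other CR values, which ended at -0.76. The Sox6 difference was 0.216 (SE 0.114, adjusted p = 0.9995), and leaving out single mice gave 0.0813 to 0.303. Ptch1 had a difference of 0.118 (SE 0.0670) and Fzd3 of 0.134 (SE 0.0760), which was 0.067 with the arrays of low correlation put back. The CR males were younger than the AL males at this age, so among males diet cannot be told apart from age. Females, alike in age, gave 0 of 23 genes at an adjusted p under 0.05, with 0% of features, and 0 of 23 at an unadjusted p under 0.05, with 5.37% of features.

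Among 24 month females, Hoxc9 had values of 1.24, 1.46, 1.48 and 1.55 in CR mice, against 0.98, 1.12, 1.24, 1.30 and 1.48 in AL mice, with a difference of 0.209 (SE 0.111, adjusted p = 0.739). Smo followed with 0.125 (SE 0.0869) and Tle6 with 0.185 (SE 0.132). With the second CR female put back, whose array had a median correlation of 0.820 with the others, these differences were 0.314 (adjusted p = 0.138), 0.148 and 0.270. In males 0 of 23 genes passed (0% of features) and 0 of 23 had an unadjusted p under 0.05 (12.8% of features), with the smallest p for Fzd3 (0.210, SE 0.114, adjusted p = 0.412). Their Hoxc9 difference was -0.208 (SE 0.127, adjusted p = 0.447), with values of 1.21, 1.32 and 1.37 in CR mice, against 1.34, 1.45, 1.60 and 1.64 in AL mice. The difference between the sexes in the diet effect was tested over the 3 ages together, and not at 24 months alone. In that test 0 of 23 genes passed (0% of features), and 0 of 23 had an unadjusted p under 0.05 (5.35% of features). The smallest adjusted p was 0.852, for Hoxc9. Over the 3 ages, the smallest p for diet were those of Ptch1 at 0.0615 (SE 0.0366), Smo at 0.0451 (SE 0.0360) and Sox6 at 0.0775 (SE 0.0622), all with an adjusted p of 0.9997, and the median half-width of the 95% intervals was 0.0819.

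The last question was sex. In adult females against males, 0 of 23 genes passed, with 0% of features, and 0 of 23 had an unadjusted p under 0.05, with 1.29% of features. Ctnnd1 had the smallest p, with values from -0.55 to -0.03 and a median of -0.238 in the 28 females, against -0.465 to -0.09 and a median of -0.19 in the 25 males, and a difference of -0.0537 (SE 0.0337, adjusted p = 0.9998). Tle5 had a difference of 0.0475 (SE 0.0319) and Tle4 of -0.0487 (SE 0.0374). The age change of AL mice between 6 and 24 months, female minus male, had its smallest p for Hoxc9, with -0.342 (SE 0.153, unadjusted p = 0.0298, adjusted p = 0.292), in a comparison where 16.5% of features had an unadjusted p under 0.05 and 0% passed.

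**Figure D4:**
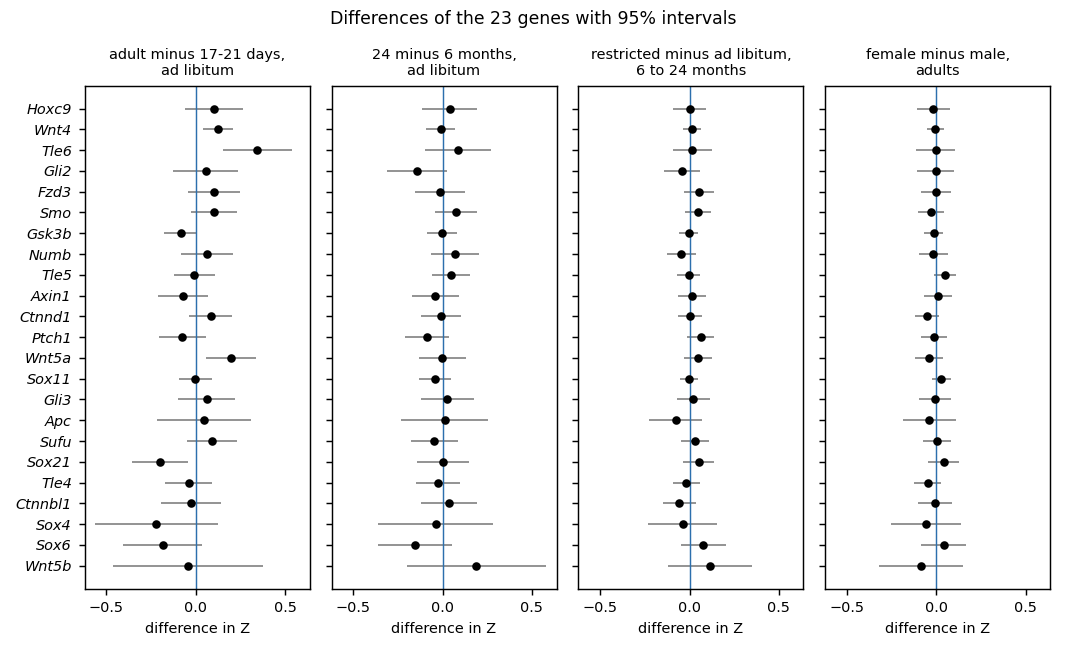
Difference in Z (horizontal axes) with its 95% interval from limma for each of the 23 genes (vertical axis, from high to low adult Z) in 4 comparisons. Tle6 (0.346), Wnt5a (0.195), Wnt4 (0.126) and Sox21 (-0.199) have intervals beyond 0 in adults against 17 to 21 days, and none passed after adjustment, while every interval covers 0 in the other 3 comparisons.

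The number of an array went with several of these genes. The labels number the arrays but name no sets. For this report the numbers were divided into 5 consecutive sets of 12 to 14 arrays. Each set had both sexes, both diets and all 3 adult ages. The juvenile cohorts were not spread in this way. No mouse of 17 to 21 days was in set 5, and none of 33 to 44 days in set 3. Age and array set were therefore partly mixed in the comparisons with the mice of 17 to 21 days. The samples were processed in balanced batches, but no source ties the array numbers to them. Of the spread within groups, the array set accounted for 60.2% in Sox4, 46.5% in Tle6, 44.4% in Apc, 43.8% in Axin1 and 43.6% in Tle5, against a median of 24.1% over all features, and for 3.38% in Fzd3 and 4.02% in Sox11. Sox4 deviated from its group means by 0.303, 0.227, -0.0302, -0.185 and -0.294 in sets 1 to 5, and Tle6 by -0.00149, -0.162, -0.0607, 0.000893 and 0.201. Some pairs of these genes also moved together within groups over the 63 arrays, whereas other pairs did not. Fzd3 correlated with Wnt4 by 0.00864 and Ctnnd1 with Tle6 by 0.0309. The 5 strongest of all pairs were the following, picked for their size and given without a level for other features. Tle6 correlated with Hoxc9 by 0.767, with Smo by 0.721, with Wnt5a by 0.714 and with Wnt4 by 0.668, and Axin1 with Hoxc9 by -0.758. With the array sets taken out as well, these were 0.607, 0.675, 0.635, 0.505 and -0.630, given as a description of arrays that share their filter and their hybridization.

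**Figure D5:**
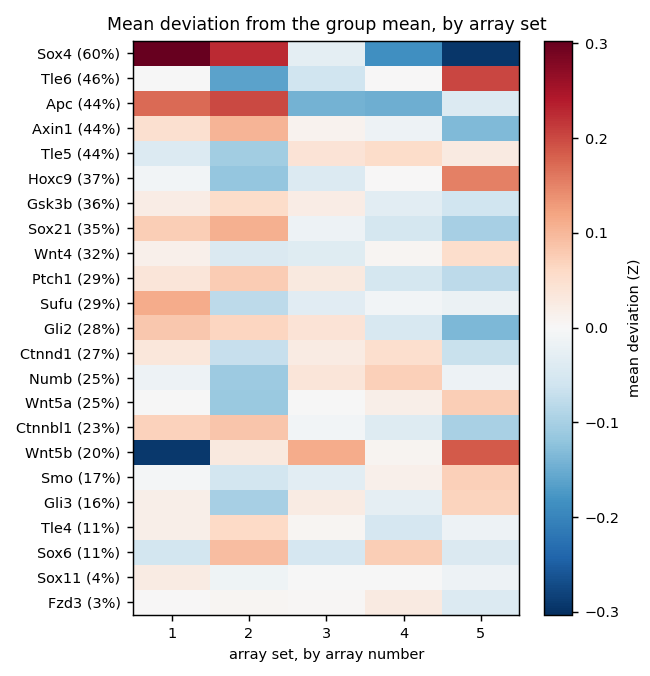
Mean deviation from the group mean in Z (colour) of each of the 23 genes (vertical axis, with the percentage of its within-group spread that went with the array set) in the 5 array sets (horizontal axis). Sox4 runs from red (0.303 in set 1) to blue (-0.294 in set 5), while Fzd3 and Sox11 stay near 0.

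Further genes of the same pathways were read from a list of 46 on the filter (19 Wnt, 13 Notch, 8 Hedgehog and 6 patterning genes). In each of the 12 comparisons 0 of 46 passed in either direction. Of all features, 0.308% passed at 33 to 44 days against 17 to 21 days. In adults against 17 to 21 days 1.4% did, and in the other comparisons 0%. At 33 to 44 days against 17 to 21 days, 5 of 46 had an unadjusted p under 0.05, where 13.4% of features did, and the median difference was 0.0404, against -0.00896 over all features. Aph1b, a subunit of the gamma-secretase that cuts Notch, had Z scores of -1.98, -1.89, -1.87, -1.41 and -1.02 at 33 to 44 days, against -3.15, -2.75, -2.51, -2.36 and -2.28 at 17 to 21 days. The cohorts did not overlap, and the difference was 1.04 (SE 0.269, adjusted p = 0.0715). In the 29 adult AL mice Aph1b lay between -2.75 and -1.18 with a median of -2.22, across both young cohorts, and it was among the dimmest spots of the filter. Without the first male of 17 to 21 days its difference was 0.875 (adjusted p = 0.780), and without the second male 1.20 (adjusted p = 0.00648).

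Map3k7, a kinase that acts in the Wnt branch without beta-catenin, had a difference of -0.313 (SE 0.0917, adjusted p = 0.130) at 33 to 44 days. Adam10, a protease that cuts Notch, had a difference of 0.187 (SE 0.0855, adjusted p = 0.341) there. In adults against 17 to 21 days, 7 of 46 had an unadjusted p under 0.05, where 20.2% of features did, with a median difference of 0.0434, against -0.00192 over all features. Id2, which binds and blocks proneural factors, had a difference of -0.161 (SE 0.0578, adjusted p = 0.158), Aph1b of 0.549 (SE 0.205, adjusted p = 0.171) and Adam10 of 0.158 (SE 0.0653, adjusted p = 0.190). In the other 10 of the 12 comparisons, between 0 and 4 of the 46 genes had an unadjusted p under 0.05, where 0.655% to 5.37% of features did. The 4 were those for diet in 24 month females, where the share of features was 5.37%. For diet in 24 month males 8 of 46 did, where 12.8% of features did, and for the difference between the sexes in the age change of AL mice 6 of 46, where 16.5% of features did.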

How the data were processed

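Cerebellar RNA was labelled with a radioactive nucleotide by reverse transcription and read on nylon filters. The authors deposited a Z score per probe and array (mean 0, SD 1 on each array). The sources used here do not say if the signals were logged first or how background was handled. The files hold no raw signal, and the number of arrays limits the precision.

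Symbols came from the platform annotation: 4875 probes had 1 symbol, 224 several and 3349 none, and all 23 genes matched the reference table by gene ID. Probes of a gene were averaged without a filter on signal. limma 3.58.1 in R 4.3.3, tested on simulated data, was fitted to 7782 features with 16 group means (47 residual degrees of freedom), both sexes weighted equally, with two-sided p-values adjusted by Benjamini-Hochberg over all features and a threshold of 0.05. Alternatives were all 66 arrays, the array set as a block, features with a mean Z above 0, single probes, quantile normalization, correction by place, array weights, the study's first criteria (Z-ratio of 1.5 or more, mean Z above 0, unadjusted p under 0.05, without its later ANOVA step) and leaving out each mouse.

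The genes and lists were chosen with earlier results of these data known. Each comparison names the genes that passed or, where none did, the 3 with the smallest p. Also named are the 10 genes with the highest and the 5 with the lowest adult Z, frizzled receptors, Gsk3b, genes with 2 probes and those with a stray array. Figures were drawn with matplotlib 3.10.9 in Python 3.11.15.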

Additional observations from a re-analysis of the deposited data

Results flagged for a closer look

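In 13 of 253 sets of values (23 genes in 11 groups of 4 or 5 arrays), 1 mouse lay far from the others of its group by Dixon's criterion. The groups of 17 to 44 days and the CR males of 24 months had fewer than 4 arrays each and could not be flagged. In the sets tested, chance flags about 1 in 20, or 12.7 here. The values were 0.25 for Fzd3 in the second AL female of 16 months, against 0.44 to 0.49 in the others, and 0.25 in the first AL male of 6 months, against 0.42 to 0.48. Gli2 was at 0.83 in the first AL male of 16 months, against 0.40 to 0.49, and Gli3 at -0.33 in that same mouse, against -0.67 to -0.60. Gli3 was at -0.76 in the fifth AL male of 6 months, against -0.60 to -0.56. Gsk3b was at 0.49 in the fifth AL female of 6 months, against 0.305 to 0.345, and Ptch1 at -0.43 in the fourth CR male of 16 months, against -0.22 to -0.19. Sox11 was at -0.465 in the fourth CR female of 24 months, against -0.595 to -0.585, and Sufu at -0.41 in the first AL female of 24 months, against -0.89 to -0.81. Tle4 was at -0.83 in the third CR female of 24 months, against -1.17 to -1.12, and at -0.99 in the first CR male of 16 months, where the others were at -0.88. Wnt5b was at -2.65 in the fourth AL female of 16 months, against -2.18 to -1.99, and at -1.50 in the fifth CR female of 16 months, against -2.20 to -2.11. Of 69 tests of a difference between diets or sexes, 0 passed (smallest adjusted p = 0.292).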

How the results depend on the processing

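The count of 0 of 23 genes held in 9 of the 12 comparisons under every setting tried, single mice left out included. The filter on mean Z and the study's first criteria both ask for a mean Z above 0. The 15 genes with a mean Z below 0 could therefore not pass in them. At 33 to 44 days against 17 to 21 days the count was 1 (Tle6) by the study's first criteria. There 4.1% of all features were called. In adults against 17 to 21 days it was 1 (Tle6) by the study's first criteria, where 4.7% of all features were called. It was also 1 (Tle6) with the array set as a block (0.287, adjusted p = 0.0371), over features with a mean Z above 0 (0.346, adjusted p = 0.0257), after quantile normalization (0.332, adjusted p = 0.0422) and after correction by place (0.277, adjusted p = 0.0170). It was 1 without the second AL female of 6 months, the third AL male of 16 months or the third AL female of 24 months, and 4 without the second male of 17 to 21 days in either juvenile comparison. At 24 against 16 months the study's first criteria gave 1 (Gli2), where 0.771% of all features were called. Blocking on the array set while leaving out the first male of 17 to 21 days, a setting chosen after seeing the data, gave 0 in both juvenile comparisons, and Tle6 differed by 0.150 (adjusted p = 0.508) in adults. Single probes turned the sign of Gsk3b at 24 against 16 months (-0.012), of Sox11 there (0.0118) and of Sox11 for diet at 6 months (0.0228), none of which had passed. The cause of these changes was not tested.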
